A study of Rattus norvegicus with 12 samples.

Results

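A set of 8 genes of the machinery that readies synaptic vesicles for release was followed in the prefrontal cortex of young rats exposed to oxycodone. They are the priming factors Unc13a, Unc13b and Unc13c, the active zone scaffolds Rims1 and Rims2, and the SNARE genes Snap25, Stx1a and Vamp2. They were taken by gene name, and all 8 were found among the 22431 genes of the deposited table and were measured in every library. The 12 libraries are poly(A) RNA of single wild-type offspring taken at early adolescence. There were 4 animals with postnatal oxycodone (PNO), 4 with in utero oxycodone (IUO) and 4 saline controls, with 2 dams behind each group and 2 offspring taken from each. Oxycodone, an opioid agonist, was given by oral gavage at 15 mg/kg, with postnatal day 21 as the last day named, and the dosing window of each group is not spelled out. Which offspring are siblings is not given, so the tests treat siblings as independent animals and may give p-values that are too low. Strain and sex are not in the labels.

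Neurotransmitter release needs a vesicle to dock at the presynaptic membrane and then to be primed. RIM proteins, encoded by the Rims genes, tether vesicles and calcium channels at the active zone and recruit Munc13 proteins, encoded by the Unc13 genes. Munc13 opens syntaxin-1, encoded by Stx1a, so that it can zip together with SNAP-25 and with synaptobrevin-2, the vesicle SNARE encoded by Vamp2, into the complex that drives fusion. In the rodent forebrain Munc13-1, the product of Unc13a, is the main isoform, while Unc13c is known mainly from the cerebellum.

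The libraries held 49227533 to 60672246 counts and mitochondrial transcripts took 15.1% to 18.9% of them. The labelled tissue's markers were present throughout, with the vesicular glutamate transporter gene Slc17a7 at 1336 to 2429 CPM (counts scaled to library size). Markers of bordering regions were uneven. A list of 13 striatal genes was raised in PNO 2, IUO 1, IUO 2 and saline 2, and a list of 8 olfactory bulb genes in PNO 1, PNO 3, PNO 4 and IUO 3. Either list was thus raised in 4 of 4 PNO, 3 of 4 IUO and 1 of 4 saline libraries. The lowest correlation between replicates of log2 CPM across genes was in the IUO group (Pearson's r 0.954, against 0.972 for PNO and 0.976 for saline). Of 8 cerebellar markers, Pcp2 and Gabra6 stayed at or below 0.639 CPM in all 12 libraries, while the other 6 were detected in each, between 4.08 CPM at the lowest (Neurod1) and 108 CPM at the highest (Calb1).

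The SNARE genes were far more abundant than the priming and scaffold genes in saline cortex when levels were set per length, in FPKM (fragments corrected for gene length and depth). Snap25 averaged 784 ± 70.1 FPKM (SD, n = 4), the 32nd highest of 14170 tested genes, which are those with a mean of at least 0.5 FPKM. Vamp2 averaged 328 ± 29.6 FPKM and Stx1a 166 ± 17.5 FPKM. Among the priming and scaffold genes Unc13a was the most abundant, at 14.5 ± 1.43 FPKM, followed by Rims1 at 10.5 ± 2.98 FPKM and Rims2 at 3.07 ± 0.42 FPKM. Unc13b, at 0.82 ± 0.16 FPKM, and Unc13c, at 0.70 ± 0.24 FPKM, lay near the lower limit for testing. The saline libraries of Unc13a and Rims1 overlapped, as did those of Unc13b and Unc13c, and no other neighbours in this order did. Counts were ample for all but these last 2 genes: Unc13c had 221 to 648 and Unc13b 422 to 1243 counts per library, against at least 1822 in each of the other members. The gene-level table does not separate the SNAP-25 splice forms or the start sites of Unc13b.

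**Figure D1:**
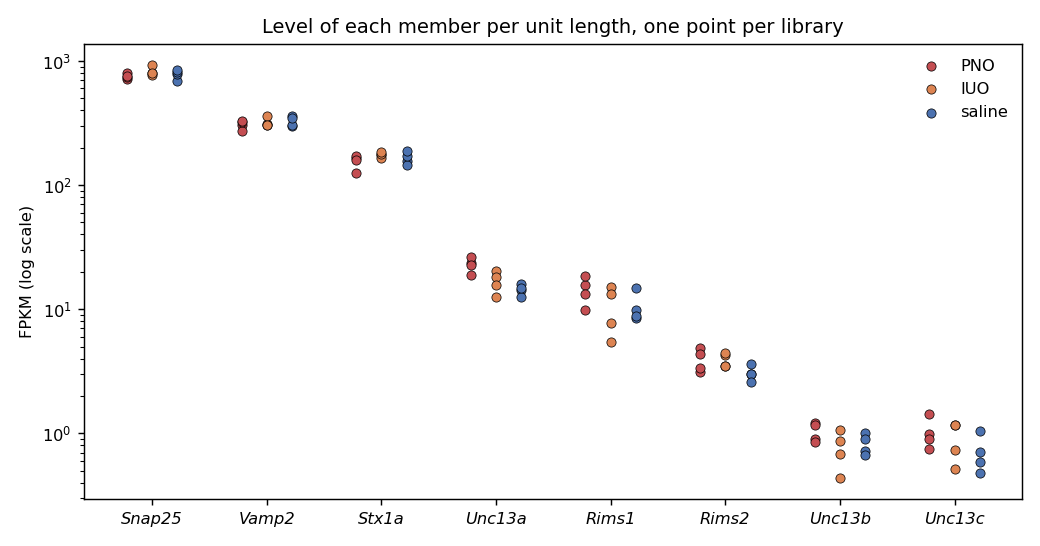
FPKM of each gene on a log axis, 1 point per library, with PNO, IUO and saline side by side and genes ordered by their saline mean. The 3 SNARE genes sit at 124 FPKM or above, Unc13a and Rims1 between 5.40 and 26.5 FPKM, and Unc13b and Unc13c at or below 1.42 FPKM.

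Promoter sequence was looked up in RefSeq on GRCr8, where 6 of the 8 genes had an entry of 250 bases before to 50 after the start of the gene, given 5′ to 3′ on the gene's strand. The promoters of the most abundant priming gene, of the more abundant scaffold gene and of a vesicle and a membrane SNARE are shown because these groups of genes differed in how they varied between libraries, as described further on. Capitals mark TGACG or its reverse complement, the core of the cyclic AMP response element.
Unc13a, chr16:18415737-18416036, minus strand: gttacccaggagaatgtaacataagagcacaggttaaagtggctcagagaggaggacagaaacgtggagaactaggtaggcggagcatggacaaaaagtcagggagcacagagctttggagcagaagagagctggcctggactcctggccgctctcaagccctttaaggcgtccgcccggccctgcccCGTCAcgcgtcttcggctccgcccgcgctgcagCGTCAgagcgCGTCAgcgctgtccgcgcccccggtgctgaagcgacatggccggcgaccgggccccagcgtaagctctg
Rims1, chr9:32692723-32693022, minus strand: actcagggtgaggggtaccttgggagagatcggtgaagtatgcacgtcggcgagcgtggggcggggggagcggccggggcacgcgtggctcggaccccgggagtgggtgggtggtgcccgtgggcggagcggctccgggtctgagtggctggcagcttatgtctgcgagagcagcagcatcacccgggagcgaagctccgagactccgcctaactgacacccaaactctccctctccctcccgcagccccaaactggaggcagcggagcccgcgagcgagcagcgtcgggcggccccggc
Vamp2, chr10:54292539-54292838, plus strand: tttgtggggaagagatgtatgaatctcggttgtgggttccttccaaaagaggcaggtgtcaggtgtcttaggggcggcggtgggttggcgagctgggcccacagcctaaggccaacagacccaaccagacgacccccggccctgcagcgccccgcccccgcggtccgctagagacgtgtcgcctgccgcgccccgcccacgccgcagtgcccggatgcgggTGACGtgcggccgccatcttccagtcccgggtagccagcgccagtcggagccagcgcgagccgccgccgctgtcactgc
Stx1a, chr12:27306422-27306721, minus strand: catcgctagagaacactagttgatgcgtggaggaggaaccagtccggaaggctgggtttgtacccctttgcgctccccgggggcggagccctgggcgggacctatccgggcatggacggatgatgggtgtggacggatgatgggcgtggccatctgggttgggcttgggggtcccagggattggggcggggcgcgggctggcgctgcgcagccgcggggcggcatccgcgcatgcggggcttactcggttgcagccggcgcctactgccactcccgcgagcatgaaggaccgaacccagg
The Unc13a window held 3 copies of TGACG on either strand, the Vamp2 window 1 and the other 2 windows 0. Of 33469 rat promoter windows of the same length, 21.2% held the motif at least once and 1.11% held it 3 times or more. The GC box GGGCGG is the core of Sp1 sites. On either strand it occurred 2 times for Unc13a, 3 times each for Rims1 and Vamp2 and 4 times for Stx1a. Of all windows 33.1% held it at least once, 17.0% held it 2 times or more and 8.97% held it 3 times or more. The Egr motif GCGNGGGCG occurred 1 time for Unc13a and 2 times for Vamp2, and its matches may overlap a GC box. At least 1 copy was found in 4.98% of windows, and 2 or more in 0.705%. All 4 windows were richer in G and C, at 63.0% to 70.7%, than the median window at 51.7%. By contrast the Unc13c window, which is not shown, had 45.7% and none of the 3 motifs. The Unc13b window at chr5:62084787-62085086 had 71.0% and 3 GC boxes, and that at chr5:62245379-62245678 had 54.0% and 1 GC box. Neither held TGACG or the Egr motif, and neither is shown.

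The first comparison set the postnatal exposure against saline. Unc13a, on chr16:18336229-18381872 of the deposited table, whose genome build is not given in the sources used here, measured 162 CPM in PNO 1, 189 CPM in PNO 2, 133 CPM in PNO 3 and 159 CPM in PNO 4. In saline it measured 101, 88.3, 117 and 110 CPM in replicates 1 to 4. All 4 PNO libraries lay above all 4 saline libraries, and the means differed 1.54-fold. The log2 fold change was 0.63 (SE 0.14), with an unadjusted p of 6.72e-04 and an adjusted p of 0.305 by edgeR's quasi-likelihood test over all 14170 genes. Unc13a was thus not called by that test, nor was any of the other 7 members, and 0.0% of all tested genes were.

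Across the transcriptome 5.17% of tested genes had all PNO libraries above all saline libraries, and Unc13a was the 1 member of 8 that did. The opposite order was found for 0 members, against 4.66% of tested genes. A positive log2 fold change was found for 5 of 8 members, against 51.2% of tested genes, and the median of the 8 was 0.32, against 0.01. At an unadjusted p under 0.05, 2 of 8 members were higher in PNO, against 6.82% of tested genes, and 0 were lower, against 4.22%. The members were chosen with earlier results of these data known, so such counts beside all tested genes are descriptions. The median of the 8 was 0.12 with the striatal and bulb marker scores as covariates and 0.17 with a correction for gene length. The 2 members were Unc13a and Rims2. The count was 1 in both of these fits, and also without PNO 1, PNO 2, saline 2, saline 3 or saline 4. It was 3 without saline 1. In each limma fit on log2 FPKM it was 1, as it was once the libraries with raised striatal markers were left out. DESeq2, run as an alternative, called Unc13a (adjusted p = 0.0162) as 1 of the 119 genes it called, 0.857% of those it tested. Over the 26 alternatives the log2 fold change of Unc13a ran from 0.47, once PNO 2, IUO 1, IUO 2 and saline 2 with their raised striatal markers were left out (adjusted p = 0.510), to 0.85, once the 4 with raised bulb markers were left out (adjusted p = 0.591). The second value rests on PNO 2 alone in the PNO group, whose spread is assumed to be that of the other groups. With both marker scores as covariates it was 0.54 (SE 0.22, adjusted p = 0.9996). As each PNO library had raised markers of 1 region or the other, no PNO value free of both could be given, and the exposure and these markers cannot be told apart.

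**Figure D2:**
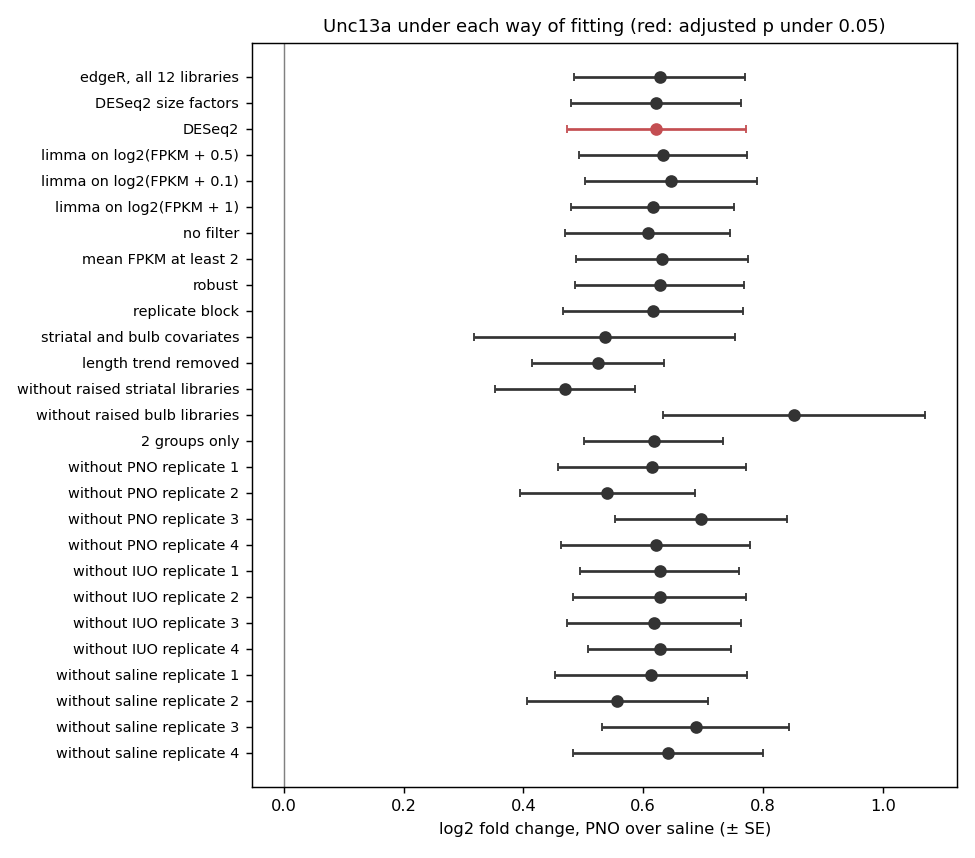
Log2 fold change of Unc13a, PNO over saline, with its SE, under edgeR on all 12 libraries (top) and each alternative. All values lie between 0.47 and 0.85, and DESeq2 is the only one drawn in red for an adjusted p under 0.05.

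The other priming and scaffold genes had positive log2 fold changes in PNO without separating from saline. Unc13b (chr5:57289227-57502926), which encodes Munc13-2, measured 20.9, 20.8, 15.9 and 15.0 CPM in PNO and 17.5, 15.9, 13.0 and 12.2 CPM in saline, a log2 fold change of 0.31 (SE 0.23, adjusted p = 0.623 by edgeR). PNO 1 and PNO 2 exceeded every saline library and the other PNO libraries did not. The log2 fold change of Unc13b was -0.034 with the marker scores as covariates. Unc13c (chr8:74247899-74673223), which encodes Munc13-3, measured 7.60, 11.2, 7.11 and 5.82 CPM in PNO and 8.04, 5.53, 4.76 and 3.91 CPM in saline, a log2 fold change of 0.51 (SE 0.30, adjusted p = 0.542). PNO 2 stood highest and the other 3 PNO libraries lay within the saline range.

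Rims1 (chr9:24698854-25196631) measured 104, 128, 68.2 and 91.1 CPM in PNO and 101, 57.3, 69.5 and 63.0 CPM in saline, with a log2 fold change of 0.43 (SE 0.29, adjusted p = 0.595). Saline 1 reached the PNO level, the other 3 saline libraries lay below 3 of the 4 PNO libraries, and without PNO 2 the log2 fold change was 0.27. Rims2 (chr7:70243872-70757491), its paralog, measured 55.6, 52.1, 37.0 and 39.7 CPM in PNO and 42.5, 35.3, 36.8 and 32.1 CPM in saline, a log2 fold change of 0.33 (SE 0.14, unadjusted p = 0.0359, adjusted p = 0.436). PNO 1 and PNO 2 lay above all saline libraries, and PNO 3 and PNO 4 lay below saline 1. In summed FPKM the Unc13 family averaged 24.8 ± 3.57 in PNO and 16.0 ± 1.31 in saline, and the 2 Rims genes 18.3 ± 4.32 and 13.6 ± 3.36 (SD, n = 4 each).

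The SNARE genes had small negative log2 fold changes. Snap25 (chr3:124041898-124123760) measured 1877, 1725, 1792 and 1820 CPM in PNO and 1638, 1877, 2030 and 2126 CPM in saline, a log2 fold change of -0.09 (SE 0.10, adjusted p = 0.742). The PNO libraries lay inside the saline range. Stx1a (chr12:21641969-21669930) measured 433, 339, 461 and 433 CPM in PNO and 423, 392, 480 and 525 CPM in saline, a log2 fold change of -0.13 (SE 0.11, adjusted p = 0.672). PNO 2, with the highest striatal score, was the lowest of all 12 libraries for Stx1a. Vamp2 (chr10:53793923-53797809) measured 1002, 922, 1093 and 1100 CPM in PNO and 1002, 1032, 1250 and 1230 CPM in saline, a log2 fold change of -0.13 (SE 0.10, adjusted p = 0.630). In summed FPKM the 3 SNARE genes averaged 1212 ± 70.9 in PNO and 1278 ± 109 in saline, so their total differed by less than the spread between animals.

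**Figure D3:**
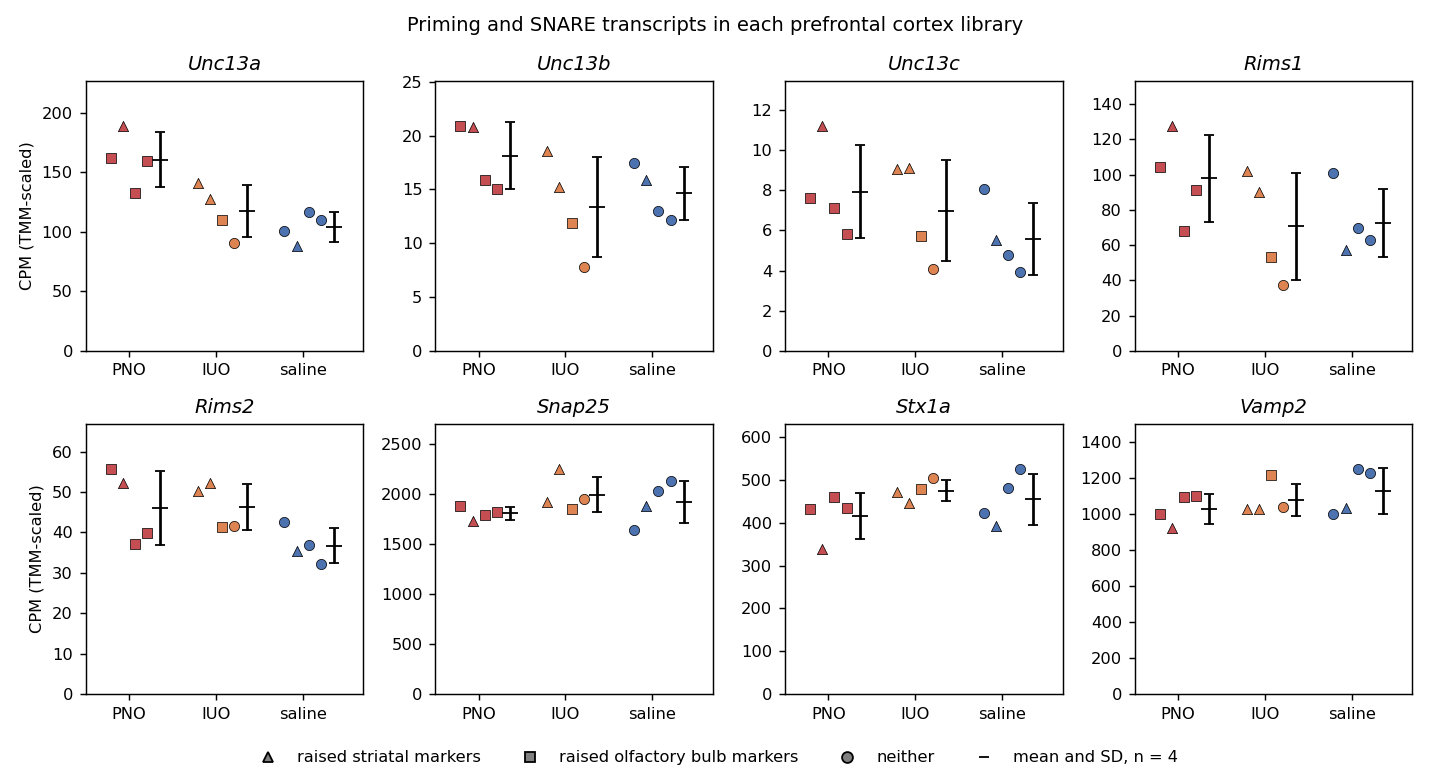
CPM of each gene in every library, with PNO, IUO and saline from left to right, triangles for raised striatal and squares for raised olfactory bulb markers, and bars for the mean and SD (n = 4). All 4 PNO points of Unc13a lie above all 4 saline points, which no other plotted gene shows. Of all tested genes 5.17% had this order.

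Several measured features of the libraries moved with the PNO values. In this bulk tissue fewer cells of a type and less RNA per cell cannot be told apart. The 8 markers of cortical excitatory neurons summed to 2575 to 3339 CPM in PNO and 2914 to 3815 CPM in saline, so the groups overlapped. Of 6 GABAergic markers 5 were in the table, and they summed to 585 to 610 CPM in PNO and 441 to 565 CPM in saline, without overlap. The 13 striatal markers summed to 346 to 2163 CPM in PNO and 353 to 742 CPM in saline. The 8 bulb markers summed to 32.4 to 209 CPM in PNO and 29.7 to 40.1 CPM in saline. As 4 of 4 PNO and 1 of 4 saline libraries had raised striatal or bulb markers, the GABAergic difference and these regional markers cannot be told apart. Saline 2, with raised striatal markers, had the lowest Unc13a level of all libraries, while PNO 2 had the highest. The summed markers of astrocytes (1241 to 1422 CPM in PNO and 1230 to 1673 CPM in saline), oligodendrocytes (6659 to 11101 CPM and 6062 to 10729 CPM), microglia (200.4 to 219 CPM and 212 to 268 CPM) and endothelium (59.3 to 73.8 CPM and 55.6 to 76.0 CPM) overlapped between PNO and saline. As a mean of log2 CPM, which weighs each gene equally, 2 of these lists were lower in PNO without overlap, astrocytes at 7.46 to 7.55 in PNO and 7.58 to 7.89 in saline and microglia at 5.08 to 5.18 in PNO and 5.20 to 5.58 in saline. The part of GABAergic, astrocyte and microglial markers in these results was not tested.

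Gene length also moved with the fold changes. The length implied by counts over FPKM was 6861 to 17646 bases for the Unc13 and Rims genes and 2412 to 3393 bases for the SNARE genes, against a median of 3115 bases. Over all tested genes of 6000 to 20000 bases the median log2 fold change in PNO was 0.11 (quartiles -0.01 and 0.25), and over those of 2000 to 4000 bases it was -0.0045 (quartiles -0.12 and 0.12). Unc13a, Unc13c, Rims1 and Rims2 exceeded the upper quartile of their class, as did Unc13b. Stx1a and Vamp2 lay below the lower quartile of theirs, and Snap25 lay between that quartile and the median. For Stx1a, of 2711 bases, this place depended on the width of the class. Among tested genes of 2000 to 3000 bases the lower quartile was -0.1366, and Stx1a lay above it at -0.1285. After correction of each library for its trend with length, PNO over saline gave a log2 fold change of 0.52 for Unc13a (SE 0.11, adjusted p = 0.284), 0.40 for Unc13c, 0.33 for Rims1, 0.19 for Rims2 and 0.14 for Unc13b. Snap25, Stx1a and Vamp2 gave -0.05, -0.12 and -0.15 in that fit.

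**Figure D4:**
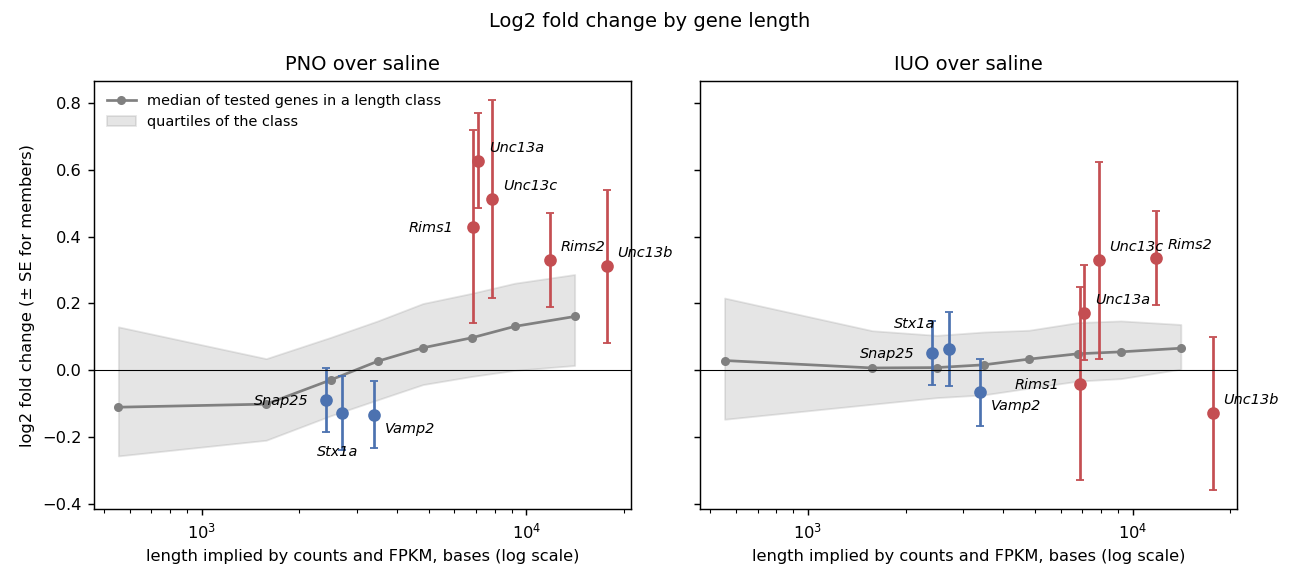
Log2 fold change against the length implied by the deposited counts and FPKM (log axis), with the 8 genes and their SE over the median and quartiles of all tested genes by length class, for PNO over saline (left) and IUO over saline (right). In PNO the class medians run from -0.11 for the shortest genes to 0.16 for the longest, and Unc13a lies at 0.63.

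The second comparison set the in utero exposure against the same saline animals. Of the 8 members 0 were called by edgeR, as were 0.0% of tested genes, and 0 separated from saline, where 1.15% of tested genes had all IUO libraries above all saline libraries and 1.03% all below. DESeq2 called 0 members, against 0.0777% of the genes it tested. A positive log2 fold change was found for 5 of 8 members, against 56.4% of tested genes. Unc13a measured 141, 128, 110 and 90.5 CPM in IUO 1 to 4, across and above the saline range of 88.3 to 117 CPM. Its log2 fold change was 0.17 (SE 0.14, adjusted p = 0.998), and it was -0.13 once the striatum-marked libraries were left out, which leaves IUO 3 and IUO 4. The 2 IUO libraries above the saline range, IUO 1 and IUO 2, are those with raised striatal markers.

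Rims2 had the lowest unadjusted p of the members in IUO. It measured 50.1, 52.1, 41.3 and 41.6 CPM in IUO and 42.5, 35.3, 36.8 and 32.1 CPM in saline, a log2 fold change of 0.34 (SE 0.14, unadjusted p = 0.0335, adjusted p = 0.998). Saline 1 was the only saline library within the IUO range. The member was 1 of 8 higher at an unadjusted p under 0.05, against 2.31% of tested genes, and 0 of 8 were lower, against 1.71%. That count was 0 without IUO 1, IUO 2, saline 2, saline 3 or saline 4, and 0 with the marker scores as covariates. Once the striatum-marked libraries were left out, 0 of 8 were higher and 1 was lower, Rims1 (unadjusted p = 0.00922 by edgeR). In that fit 660 of 14170 tested genes were higher and 355 lower at an unadjusted p under 0.05. The log2 fold change of Rims2 was positive in all 26 alternatives, from 0.16 to 0.41, and the lowest value (unadjusted p = 0.405) was that without the striatum-marked libraries.

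The remaining priming and scaffold genes spread more widely within IUO than within saline. Rims1 measured 102, 90.3, 53.1 and 37.4 CPM in IUO 1 to 4 (mean 70.7 ± 30.4, against 72.7 ± 19.5 in saline), a log2 fold change of -0.04 (SE 0.29, adjusted p = 0.998). That value was 0.17 without IUO 4 and -0.78 once the striatum-marked libraries were left out. Unc13b measured 18.6, 15.3, 11.9 and 7.75 CPM in IUO, a log2 fold change of -0.13 (SE 0.23), and Unc13c 9.08, 9.12, 5.71 and 4.06 CPM, a log2 fold change of 0.33 (SE 0.30), with an adjusted p of 0.998 each by edgeR. IUO 4 was the lowest IUO library for Unc13a, Unc13b, Unc13c and Rims1, and IUO 3 and IUO 4 were the lower pair for Rims2. Snap25 measured 1912, 2244, 1851 and 1946 CPM in IUO, Stx1a 471, 447, 478 and 505 CPM, and Vamp2 1030, 1031, 1215 and 1037 CPM. Their log2 fold changes over saline were 0.05 (SE 0.10), 0.06 (SE 0.11) and -0.07 (SE 0.10), and the adjusted p was 0.998 for each by edgeR.

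The exposures were then compared directly, with PNO over IUO. Unc13a, at 161 ± 23.0 CPM in PNO and 117 ± 21.9 CPM in IUO, had a log2 fold change of 0.46 (SE 0.14, unadjusted p = 0.00668, adjusted p = 0.714 by edgeR), and IUO 1 overlapped PNO 3. It was the 1 member of 8 higher at an unadjusted p under 0.05, against 3.06% of tested genes, and 0 members were lower, against 3.67%. By edgeR 0 of 8 members were called, as were 0.0% of tested genes, and by DESeq2 0, against 0.0565%. All PNO libraries lay below all IUO libraries for 0 members, against 1.85% of tested genes, and above for 0, against 1.78%. A positive log2 fold change was found for 4 of 8 members, against 49.2% of tested genes. Rims1 had a log2 fold change of 0.47 (SE 0.29, adjusted p = 0.720) and Unc13b of 0.44 (SE 0.23, adjusted p = 0.714). Without IUO 4 these were 0.26 and 0.25, and once the striatum-marked libraries were left out they were 0.96 and 0.81, with an adjusted p of 0.307 each by edgeR. Rims2 averaged 46.1 ± 9.13 CPM in PNO and 46.3 ± 5.64 CPM in IUO, a log2 fold change of -0.0053 (SE 0.14). Unc13c had 0.18 (SE 0.29), Snap25 -0.14 (SE 0.10), Stx1a -0.19 (SE 0.11) and Vamp2 -0.07 (SE 0.10), with adjusted p between 0.719 and 0.879. The PNO and IUO differences from saline share the saline libraries, so their likeness is not a result.

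**Figure D5:**
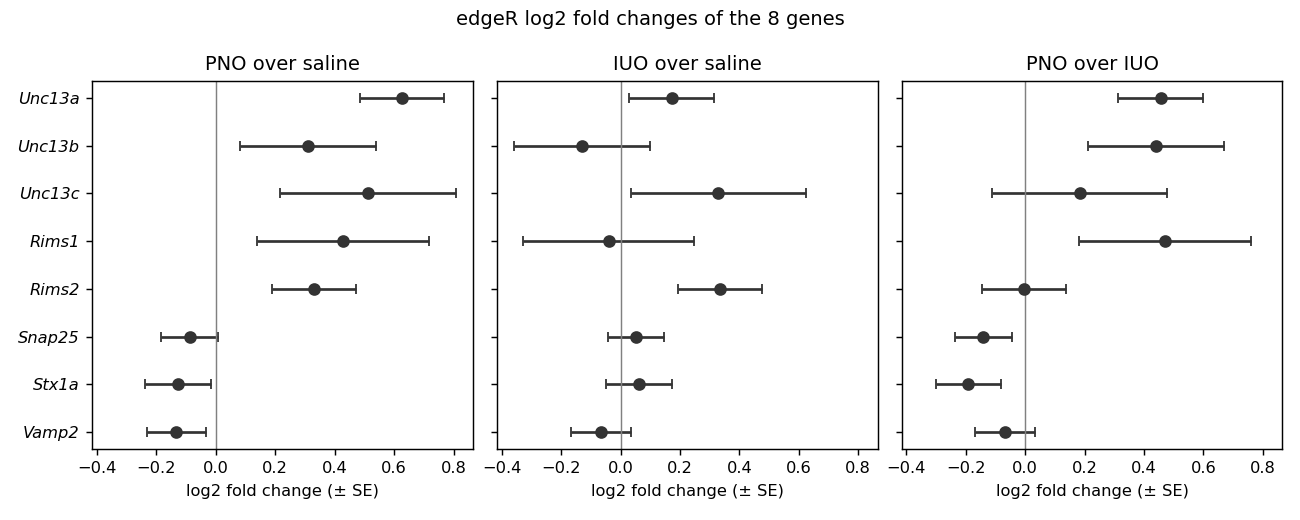
edgeR log2 fold changes with their SE for the 8 genes in PNO over saline, IUO over saline and PNO over IUO. Unc13a lies at 0.63, 0.17 and 0.46, and the 3 SNARE genes lie between -0.19 and 0.06 in all 3 comparisons.

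The make-up of each family was set within libraries, where the scaling between libraries drops out. The level of each share rests on the implied lengths, which may not equal transcript lengths. These were 7098 bases for Unc13a, 17646 for Unc13b, 7857 for Unc13c, 6861 for Rims1 and 11824 for Rims2. In CPM, which has no length correction, saline averaged 104 for Unc13a, 14.6 for Unc13b and 5.56 for Unc13c, and 72.7 for Rims1 and 36.7 for Rims2. Unc13a took 91.4%, 91.1%, 91.2% and 93.4% of Unc13 family FPKM in PNO, 90.0%, 89.9%, 91.7% and 93.0% in IUO, and 87.6%, 88.6%, 92.5% and 92.9% in saline. Rims1 took 76.4%, 80.9%, 76.1% and 79.8% of the Rims1 and Rims2 FPKM in PNO, 77.8%, 74.9%, 68.9% and 60.7% in IUO, and 80.4%, 73.7%, 76.5% and 77.2% in saline. The groups overlapped in both shares. The largest difference was that of the Rims1 share between PNO and IUO, 7.68 percentage points (exact permutation p = 0.114, two-sided, adjusted p = 0.600 over 6 tests), where 4 against 4 animals allow no p below 0.0286. IUO 4 had the lowest Rims1 share of all 12 libraries, and without it the difference was 4.40 points. The Unc13a share differed by 1.37 points between PNO and saline (exact permutation p = 0.400, adjusted p = 0.600), and by 0.835 points without PNO 4, 0.442 without saline 1, 0.776 without saline 2, 2.06 without saline 3 and 2.21 without saline 4.

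Across the 12 libraries the 5 priming and scaffold genes varied together and apart from the SNARE genes. Saline 1 was the highest saline library for Unc13b, Unc13c, Rims1 and Rims2 and the lowest for Snap25 and Vamp2. PNO 2 was the highest PNO library for Unc13a, Unc13c and Rims1 and the lowest for Snap25, Stx1a and Vamp2. Not every library split in this way. PNO 1 was the highest PNO library for Unc13b, Rims2 and Snap25. IUO 2 was the highest IUO library for Unc13c, Rims2 and Snap25 and the lowest for Stx1a. Saline 2 was the lowest saline library for Unc13a, Rims1 and Stx1a. Pearson's r of log2 CPM over the 12 libraries was 0.51 to 0.90 in the 10 pairs among the priming and scaffold genes, with Unc13b and Rims1 the closest. It was 0.43 to 0.72 in the 3 pairs of SNARE genes, and -0.71 to -0.09 in the 15 pairs between the sets. These values are descriptions, since the points share group, library and length differences.

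The genes whose log2 CPM over the 12 libraries was most like that of each member were taken from all tested genes. For Unc13a they were Tln2 (r = 0.95), which encodes talin-2, and Mgat5 (r = 0.95), a glycosyltransferase gene. For Rims1 they were Eloa (r = 0.97) and Gapvd1 (r = 0.96), for Rims2 Atp2b3 (r = 0.96), a plasma membrane calcium pump gene, and Miga1 (r = 0.95). For Unc13b they were Acbd3 (r = 0.96) and Tbc1d24 (r = 0.96), and for Unc13c Zfp92 (r = 0.96) and Kif13a (r = 0.96). Snap25 was nearest to Gtpbp8 (r = 0.92) and Epop (r = 0.91), Stx1a to Ubtd1 (r = 0.94) and Kcnk1 (r = 0.92), and Vamp2 to Ctdnep1 (r = 0.96) and Rrp7a (r = 0.95). Each is the top of a ranking of all tested genes, over libraries that share group, depth and marker differences, and carries no test.

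The wider release machinery was read from a list of 50 other genes, of which 47 were found by name in the deposited table. All 47 passed the filter on low values. Cplx1, Cplx4 and Snap23 were not found by name and could not be read. By edgeR 0 of 47 were called in PNO over saline, as were 0.0% of tested genes. At an unadjusted p under 0.05, 4 were higher, against 6.82% of tested genes, and 1 was lower, against 4.22%. Of the 47, 34 were positive and 13 negative in log2 fold change, where 51.2% of tested genes were positive. The median was 0.14, against 0.01 over all tested genes. With the marker scores as covariates 22 were positive and 25 negative, with a median of -0.0064, and after correction for length the median was 0.078. Among 11 other active zone scaffolds 9 were positive, with a median of 0.25, and among 15 SNARE regulators and calcium sensors 13 were positive, with a median of 0.32. The 10 other SNAREs were split 5 and 5 and the 11 other priming and Rab3 factors 7 and 4, with medians of -0.0020 and 0.07.

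The 5 list genes with the smallest p in PNO were the liprin gene Ppfia4, the scaffold gene Bsn, the calcium sensor gene Doc2b, the small GTPase gene Rab3d and the SNARE gene Vamp3. Ppfia4 measured 62.3 ± 9.42 CPM in PNO and 45.1 ± 4.77 CPM in saline, a log2 fold change of 0.46 (SE 0.13, adjusted p = 0.311 by edgeR). Bsn, which encodes bassoon, measured 54.4 ± 13.7 CPM in PNO and 31.0 ± 9.02 CPM in saline, a log2 fold change of 0.81 (SE 0.30, adjusted p = 0.406). Doc2b measured 11.6 ± 3.52 CPM in PNO and 7.19 ± 0.60 CPM in saline, and Rab3d 29.7 ± 3.30 CPM and 23.0 ± 3.29 CPM, with an adjusted p of 0.412 each. Doc2b, Rab3d and the complexin gene Cplx2 were the 3 list genes of 47 with all 4 PNO libraries above all 4 saline libraries, against 5.17% of tested genes. Vamp3 measured 36.7 ± 2.09 CPM in PNO and 42.8 ± 5.53 CPM in saline (adjusted p = 0.452).

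In IUO over saline 0 of the 47 were called, as were 0.0% of tested genes. Of the 47, 28 were positive and 19 negative, where 56.4% of tested genes were positive. The median was 0.06, against 0.02 over all tested genes. The direction turned to 15 positive and 32 negative both with the marker scores as covariates (median -0.087) and once the striatum-marked libraries were left out (median -0.13). Without IUO 2 alone, 20 were positive and 27 negative (median -0.041), and without IUO 4 the median was 0.14. The 5 with the smallest p were Syt2, Ppfia4, Unc13d, Rimbp2 and Vamp7, each with an adjusted p of 0.998 by edgeR. The calcium sensor gene Syt2 measured 8.84 ± 6.15 CPM in IUO and 3.84 ± 0.84 CPM in saline, a spread in IUO that spans the difference. Rimbp2, which links RIM to calcium channels, measured 158 ± 18.5 CPM in IUO and 183 ± 27.9 CPM in saline. In PNO over IUO 0 of 47 were called, as were 0.0% of tested genes. Of the 47, 33 were positive and 14 negative, where 49.2% of tested genes were positive. The median was 0.11, against -0.0040 over all tested genes. The smallest p there belonged to Syt9, at 5.48 ± 0.63 CPM in PNO and 2.60 ± 1.16 CPM in IUO (log2 fold change 1.07, SE 0.35, adjusted p = 0.714), with all 4 PNO libraries above all 4 IUO libraries, as for 1.78% of tested genes. Rab3d, Doc2b, Bsn and Vamp3 followed, with an adjusted p of 0.714 each. Vamp3 was separated the other way, at 36.7 ± 2.09 CPM in PNO and 42.4 ± 3.88 CPM in IUO, with all 4 PNO libraries below all 4 IUO libraries, against 1.85% of tested genes.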

How the data were processed

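The authors deposited 1 table with whole-number counts and FPKM per gene and library, as the file headers name them. HISAT2 and StringTie are named in the submitters' processing notes, with versions, build and annotation not given in the sources used here. Libraries are stranded poly(A), per the labels' protocols. Genes with a mean of at least 0.5 FPKM were kept (14170). Counts were scaled with TMM factors, and an edgeR quasi-likelihood model over the 12 libraries in 3 groups gave two-sided tests, with Benjamini-Hochberg adjustment over all tested genes and a threshold of 0.05. For edgeR, SE is the log2 fold change over the root of F. For limma it is the log2 fold change over t, and for DESeq2 it is the SE which that tool reports. CPM is TMM-scaled, and log2 CPM used a prior count of 2. The members had 221 (Unc13c) to 120762 (Snap25) counts per library. A marker list was raised where its mean log2 CPM exceeded the median library by over 0.5. Named genes were the 8 members, the 5 list genes with the smallest p per comparison and the 2 genes most like each member. Members and lists were chosen with earlier results of these data known. Alternatives were DESeq2 and its size factors, limma on log2 FPKM, other filters, a robust fit, a replicate block, marker covariates, removal of a length trend, fewer libraries and each library left out in turn. The edgeR fit, with and without removal of the length trend, was tested on simulated counts, and the exact permutation test on made-up values. The DESeq2 and limma fits were not tested in this way. Tools were Python 3.11.15 with scipy 1.17.1 and matplotlib 3.10.9, and, in R 4.3.3, DESeq2 1.42.0, limma 3.58.1 and edgeR 4.0.16.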

Additional observations from a re-analysis of the deposited data

Results flagged for a closer look

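In 30 groups of 4 libraries (8 genes and 2 family shares in each of 3 groups), 2 held a library that stood apart from the other 3, where chance gives about 1 in 20. Vamp2 measured 1215 CPM in IUO 3 and 1030 to 1037 CPM in the other IUO libraries, a gap of 0.963 of the group's whole range. IUO 3 is the IUO library with raised olfactory bulb markers, and their part in this value was not tested. The Unc13a share of Unc13 family FPKM was 93.4% in PNO 4 and 91.1% to 91.4% in the other PNO libraries, a gap of 0.87 of the range.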

How the results depend on the processing

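Under the alternatives 593 values of the members' log2 fold changes kept their direction and their side of the threshold, 24 changed sign and 1 passed (Unc13a in PNO, 0.62 by DESeq2). The sign changes were all of values that passed in no fit. With the marker scores as covariates, PNO over saline gave 0.0062 for Stx1a and -0.034 for Unc13b, and PNO over IUO 0.039 for Rims2. Without the libraries with raised striatal markers, IUO over saline gave -0.13 for Unc13a, -0.19 for Unc13c and -0.025 for Snap25, and PNO over IUO 0.090 for Rims2. Without those with raised bulb markers, which leaves 1 PNO library, Rims1 in IUO over saline was 0.073 and Rims2 in PNO over IUO 0.11. A mean FPKM of at least 2 gave 0.0067 for Rims2 in PNO over IUO and dropped Unc13b and Unc13c. Leaving out each library in turn, IUO over saline ran from -0.27 to 0.17 for Rims1, -0.33 to 0.059 for Unc13b, -0.016 to 0.097 for Snap25 and -0.0026 to 0.13 for Stx1a. PNO over IUO ran from -0.11 to 0.089 for Rims2, -0.030 to 0.34 for Unc13c and -0.097 to 0.0021 for Vamp2. Unc13a in PNO over saline ran from 0.54 to 0.70.

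Members called numbered 0 in every fit except DESeq2 for PNO over saline (1), and release machinery genes called 0 in every fit. All genes called, 0 by edgeR in each comparison (1564, 570 and 953 at an unadjusted p under 0.05), numbered 119 (PNO over saline), 11 (IUO over saline) and 8 (PNO over IUO) by DESeq2. In PNO over saline they numbered 1 by limma at each pseudocount (0.5, 0.1 and 1), 11 in the fit of the 8 libraries compared and 3 without the libraries with raised bulb markers. Without the bulb-marked libraries there were 1 in IUO over saline and 3 in PNO over IUO, and without those with raised striatal markers there were 4 and 3. Leaving out 1 library gave 0 to 19 in PNO over saline (19 without IUO 4), 0 to 1 in IUO over saline and 0 to 1 in PNO over IUO. Family shares changed sign without the libraries with raised striatal markers for Rims1 in PNO over saline (-0.59 points) and Unc13a in PNO over IUO (-0.38 points). The Unc13a share in IUO over saline ran from -0.17 to 1.60 points with 1 library left out. The cause of these changes was not tested.

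With the replicate number as a block 0 genes were called in each comparison, and 1780, 705 and 1144 had an unadjusted p under 0.05, among them 4 members higher in PNO over saline, against 2 without the block. With the block the SE in PNO over saline was 0.13 for Unc13b and 0.10 for Rims2, against 0.23 and 0.14 without it. Same-numbered libraries correlated at 0.02 to 0.41 in their deviations, and differently numbered ones at -0.30 to 0.20. In the 3 comparisons 4, 4 and 5 of 8 libraries correlated best with their own number. PNO 2, IUO 2 and saline 2 all had raised striatal markers. The labels do not say that the numbers pair animals, so the main fit left them out. What same-numbered libraries share was not tested.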
